A study of Mus musculus with 6 samples.

Results

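The genes described here code for NADH:ubiquinone oxidoreductase, respiratory complex I, in mouse embryonic stem cells in which the RNA of Son was knocked down. Members were the protein-coding genes whose symbol starts with Ndufa, Ndufb, Ndufc, Ndufs or Ndufv, the assembly factors named Ndufaf included. There were 46 such genes, and 5 non-coding genes or pseudogenes with such a symbol were left out. Of the 46 genes, 40 had an intron listed in all 4 total RNA libraries. These 40 held 122 of the 68322 introns listed in all 4, and the 46 genes held 226 of the 116874 transcripts in the long-read tables. Ndufb8 and Ndufc2 had no listed intron, and the introns of Ndufa3, Ndufaf8, Ndufb2 and Ndufb10 were each missing from at least 1 library, so these 6 genes were measured by long reads only.

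E14 cells, a line of 129/Ola background, were grown in serum with leukemia inhibitory factor. They received a control siRNA or an siRNA against Son, and RNA was taken 24 hours after transfection. Total RNA without ribosomal RNA came from 2 samples of each treatment, and Nanopore cDNA of polyadenylated RNA from 1 sample of each. All cells had been through transfection, and there was no untransfected sample in the comparison. The labels do not say whether the 2 samples of a group were separate cultures, so the p-values measure the spread between these samples, which may be technical.

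Complex I takes electrons from NADH, passes them through a flavin and a chain of iron-sulfur clusters to ubiquinone, and pumps protons across the inner mitochondrial membrane. Its catalytic core is built partly from mitochondrial genes, which are not described here, and partly from nuclear genes such as Ndufs1, Ndufs3, Ndufs8 and Ndufv1. Most other Ndufa, Ndufb, Ndufc, Ndufs and Ndufv proteins are accessory subunits around this core, and the Ndufaf proteins help to assemble it without staying in the finished complex. Ndufa4 and Ndufa4l2 carry complex I names but belong to complex IV, and they were kept apart. Son codes for a nuclear speckle protein that helps the spliceosome remove introns with weak splice sites. By role there were 7 core genes with 41 introns, 29 accessory genes with 54 introns, 8 assembly factors with 23 introns and the pair of complex IV genes with 4 introns.

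In the total RNA tables, Son had 4376 and 3251 spliced reads in the controls against 1380 and 1061 in the knockdown, and it had 217 of 3080426 long reads in the control against 37 of 1874851 in the knockdown. Its log2 fold change of spliced reads was -1.61 (SE 0.09) with an adjusted p of 3.72e-10 by edgeR's quasi-likelihood test. The libraries held 10556187 to 16012286 split reads at 5′ junctions, and knockdown replicate 2 stood lowest in splicing over all introns, with 66.9 unsplit reads per 1000 junction reads against 51.4 to 59.5 in the other libraries. Of 10 embryonic stem cell markers, 9 were listed, and their summed level was 4775 to 5041 CPM (spliced reads per 1000000 of the library) across the 4 libraries. Of 5 fibroblast markers, Thy1 and Vim were listed, at a summed 393 and 384 CPM in the controls against 378 and 428 in the knockdown, while Col1a1, Col1a2 and Col3a1 were not listed and had no long read. Listed endoderm, mesoderm and neural markers summed to 1.83 to 4.72 CPM per list and library.

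Ndufa13 was the member with the clearest change: its spliced RNA fell by 0.88 on the log2 scale and its remaining junction reads were more often unsplit. Ndufs8 held the one member intron that was spliced less completely by the test, and this rested on 1 library. No other member was called for fewer spliced reads, and none for more. The exon sequences joined at the 3 member introns with the smallest p-values are given first, since these junctions carry the splicing results. Each line runs 5′ to 3′ through the last 30 bases of the upstream exon and the first 30 of the downstream exon, in the spliced transcript, with the 3 bases on each side of the junction in capitals. The sequences are from GENCODE M21 (GRCm38) transcripts and lie in coding sequence, while the intron positions are those of the deposited tables (GRCm39 per the submitters' processing notes).
Ndufs8 intron 2: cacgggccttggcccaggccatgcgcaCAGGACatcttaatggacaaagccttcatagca
Ndufa13 intron 4: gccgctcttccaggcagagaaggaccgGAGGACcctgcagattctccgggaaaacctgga
Ndufs3 intron 5: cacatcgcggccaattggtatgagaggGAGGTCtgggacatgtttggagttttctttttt
These introns were 72, 93 and 133 nt long. Their upstream exons ended in CAG, GAG and GAG. In 100 bases of exon on each side, GC content was 53% for Ndufs8, 58.5% for Ndufa13 and 46% for Ndufs3.

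Ndufa13 codes for an accessory subunit, also known as GRIM-19, that complex I needs for its assembly. Its spliced reads, counted as reads split at 5′ junctions and scaled by TMM, were 45.1 and 51.5 CPM in the controls against 29.3 and 22.5 in the knockdown. Both knockdown libraries lay well below both controls; in such bulk samples, fewer cells with an RNA and less of it per cell cannot be told apart. The log2 fold change was -0.88 (SE 0.14, 95% interval -1.18 to -0.59) with an edgeR adjusted p of 0.000194. The long-read counts moved the same way, from 615 to 260 reads, or 199.6 to 138.7 CPM. Over its 3 introns listed in all libraries, unsplit reads were 3.23 and 6.28 CPM in the controls against 4.61 and 6.16 in the knockdown. Unsplit reads thus overlapped between the groups while split reads did not.

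The share of split reads over both junctions, the splicing efficiency, was 0.965 and 0.942 for Ndufa13 as a gene in the controls against 0.927 and 0.878 in the knockdown. The log2 odds ratio of unsplit reads was 1.13 (SE 0.33) with an edgeR adjusted p of 0.0109. This call was lost without control replicate 1 (adjusted p = 0.736), without knockdown replicate 2 (0.385) and with DESeq2 (0.0716), whereas the fall in spliced reads passed in all 10 alternatives. Of its introns, the 93-nt intron 4 (chromosome 8, 70347061 to 70347153) had splicing efficiencies of 0.974 and 0.944 in controls against 0.908 and 0.885 in the knockdown, with an edgeR adjusted p of 0.0515. Introns 2 and 3, which are 6221 and 666 nt long, had groups that overlapped. The gene overlaps Yjefn3 on the same strand and Tssk6 on the other in GENCODE M21. In the control and knockdown, Yjefn3 had 9 and 3 long reads and Tssk6 had 6 and 1, where Ndufa13 had 615 and 260. What these genes add to the junction reads of Ndufa13 in total RNA was not tested.

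Over all 39 members tested for spliced reads, 1 was called fewer and 0 more by edgeR, where 6.76% of 9474 genes were called fewer and 1.96% more. Ndufa13 was that gene. At an unadjusted p under 0.05 there were 5 members fewer and 0 more (background 12% and 7.72%), and DESeq2 called Ndufa13 only (background 7.09%). Groups did not overlap in 10 members that were lower (background 24.6%) and 5 that were higher (background 24%). The median log2 fold change of the members was -0.09, and 27 of 39 lay below 0, against a median of 0.01 over all genes. Single members ran from -0.88 to 0.25, with adjusted p-values of 0.108 to 0.989 for the 38 not called. Without knockdown replicate 2 the members' median was 0.01 and 19 lay below 0. Without knockdown replicate 1 it was -0.20, and 9 members were called, all fewer, where 13.6% of all genes were.

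**Figure D1:**
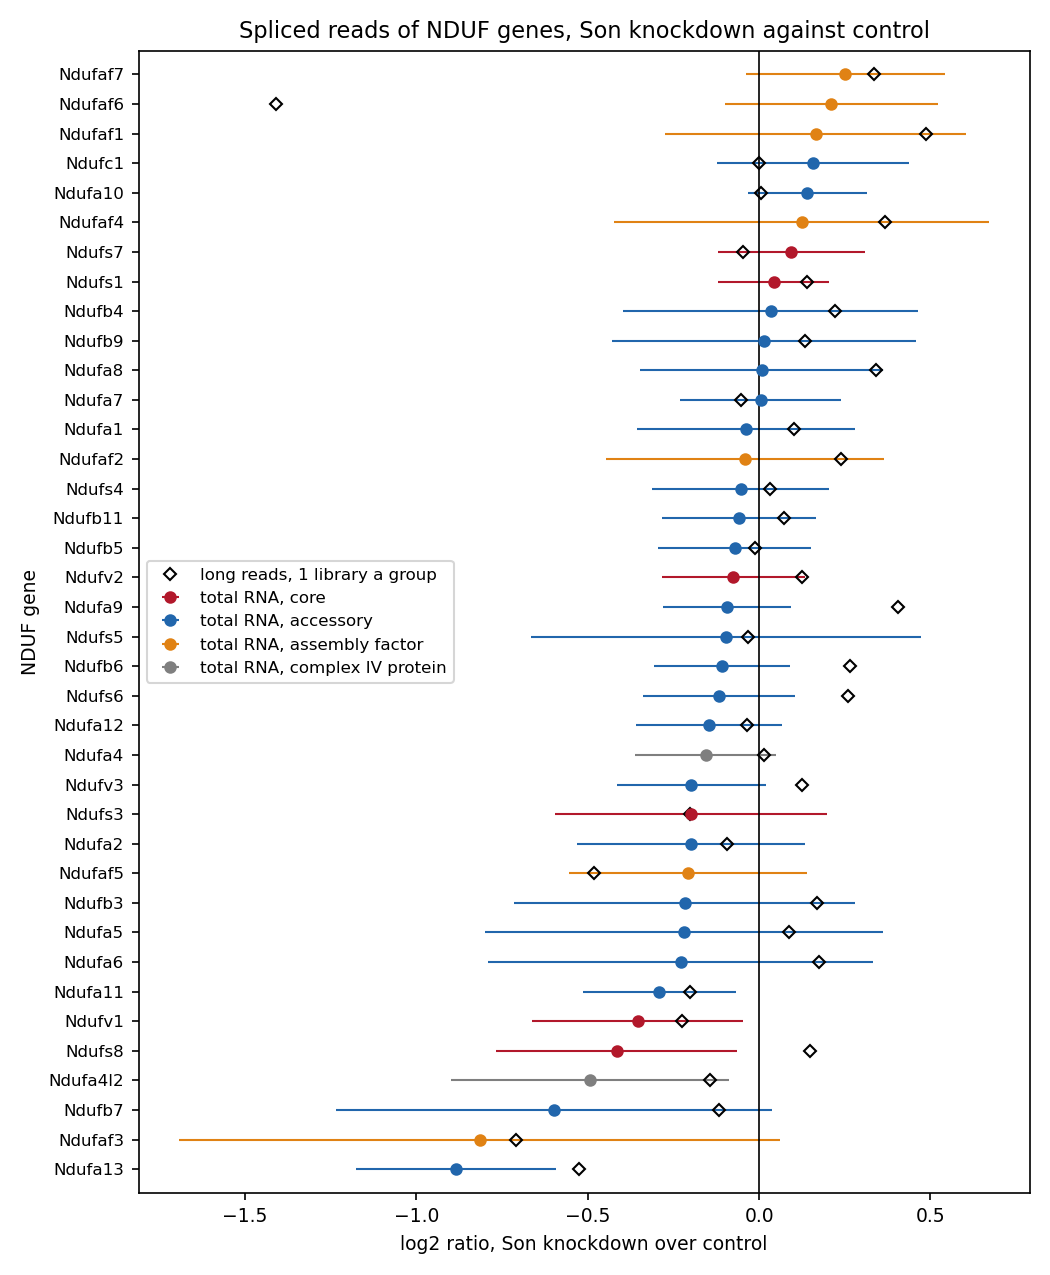
Log2 ratio of Son knockdown over control for 38 of the 39 NDUF genes tested in total RNA (filled points, edgeR log2 fold change of spliced reads with its 95% interval, coloured by role) and the same genes in long reads (open diamonds, 1 library a group, no error shown). Ndufa13 at the bottom lies at -0.88 with an interval that ends at -0.59, and the long-read value of Ndufaf6 stands apart at -1.41.

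The 95% interval of the fold change stayed within 2-fold in either direction for 36 of the 38 members not called, and within 1.5-fold for 26 of them. The remaining 2 were Ndufaf3 and Ndufb7, which had few reads. Ndufaf3, an assembly factor that acts on the ubiquinone-binding module, had 21 and 27 spliced reads in the controls against 15 and 12 in the knockdown. Its log2 fold change was -0.82 (SE 0.42, adjusted p 0.295 by edgeR). In long reads, where the control library was deeper, it had 103 reads in the control and 38 in the knockdown, or 33.4 against 20.3 CPM. Ndufb7, an accessory subunit of the membrane arm, had 3.75 and 4.15 CPM of spliced reads in the controls against 2.98 and 2.12 in the knockdown, with a log2 fold change of -0.60 (SE 0.30, adjusted p 0.289 by edgeR). The knockdown libraries were lower for both genes (background 24.6%), but neither passed the test.

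Among the 7 core genes none was called by edgeR (background 6.76% fewer and 1.96% more) or DESeq2 (background 7.09%). At an unadjusted p under 0.05 by edgeR, 2 had fewer reads (background 12%). Ndufs8, an iron-sulfur subunit near the ubiquinone site, had 54.5 and 57.5 CPM of spliced reads in the controls against 53.1 and 29.8 in the knockdown. Only knockdown replicate 2 was far from the controls, the log2 fold change was -0.41 (SE 0.17) and the edgeR adjusted p 0.160. Ndufv1, the subunit that binds NADH and the flavin, had 38.0 and 32.0 in the controls against 30.7 and 23.9 in the knockdown, a log2 fold change of -0.35 (SE 0.15) and an edgeR adjusted p of 0.170. Ndufs1, the large iron-sulfur subunit, was measured most precisely: its 13 introns gave 297.9 and 286.8 CPM in the controls against 284.9 and 317.6 in the knockdown, a log2 fold change of 0.04 (95% interval -0.12 to 0.20).

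The 23 accessory genes tested had a median log2 fold change of -0.10, and Ndufa13 was the only one called (background 6.76% fewer and 1.96% more). Ndufa11, a membrane-arm subunit, came next at an edgeR adjusted p of 0.108: it had 78.0 and 76.4 CPM of spliced reads in the controls against 68.0 and 57.9 in the knockdown, a log2 fold change of -0.29 (SE 0.11). Of the 7 assembly factors tested none was called, and their median was 0.12. None of them had an unadjusted p under 0.05 (background 12% fewer and 7.72% more). The 3 highest members of all were assembly factors. Ndufaf7, a protein methyltransferase, had 23.7 and 25.2 CPM in the controls against 29.3 and 28.8 in the knockdown (log2 fold change 0.25, SE 0.14, edgeR adjusted p 0.341). Ndufaf6 was at 0.21 (SE 0.15, edgeR adjusted p 0.483) and Ndufaf1 at 0.16 (SE 0.21, edgeR adjusted p 0.742). Their groups did not overlap, as in 5 members that were higher (background 24%). The 3 were picked as the highest, so this is no separate support, and none of them passed the test. Of the complex IV pair, Ndufa4 was at -0.16 (SE 0.10, edgeR adjusted p 0.421) and Ndufa4l2 at -0.49 (SE 0.19, edgeR adjusted p 0.141).

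Levels differed widely among members. Divided by the number of listed introns, control spliced reads in CPM ran from 0.177 in Ndufab1, whose 5′ junction had 1 to 5 split reads in a library, to 64.8 in Ndufa4, with a median of 11.6 over 40 genes. In long reads, which count 1 read per cDNA molecule whatever its introns, the control level ran from 13.3 CPM in Ndufaf6 to 1058 in Ndufa4, with a median of 197.5 over 46 genes.

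Member introns were mostly spliced in the controls. The mean splicing efficiency of the 122 introns was 0.942 and 0.933 in control libraries against 0.937 and 0.920 after knockdown, or 0.938 ± 0.0059 against 0.929 ± 0.012 (SD, n = 2 each). Knockdown replicate 1 lay between the controls, so the groups overlapped. Each knockdown library lay below the control of the same replicate number, but whether these numbers pair the samples was not settled. Over all 68322 introns the means were 0.898 ± 0.0073 and 0.884 ± 0.012 (SD, n = 2 each). In controls 60.7% of member introns were at 0.95 or above and 4.10% were under 0.8, where 41.4% and 12% of all introns were. Member introns were also covered more deeply, with a median of 348 junction reads per library against 185 over all introns, so the comparison of these shares is a description.

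By role, core introns went from 0.934 ± 0.0089 to 0.920 ± 0.0051, accessory introns from 0.957 ± 0.0040 to 0.948 ± 0.014, assembly factor introns from 0.893 ± 0.0039 to 0.895 ± 0.025 and those of the complex IV genes from 0.972 ± 0.014 to 0.951 ± 0.013 (mean over introns, SD over n = 2 libraries). Assembly factors were thus the least completely spliced role in both groups. Their introns were also the least covered, with a median of 131 junction reads per library. The medians were 396 in core, 547 in accessory and 591 in complex IV introns. Median lengths were 2276 nt in assembly factors, 707 in core, 1844.5 in accessory and 787.5 in complex IV introns, so the comparison of roles is a description. Of the 122 introns, 26 were lower in both knockdown libraries than in both controls (background 23.6%) and 13 were higher (background 13%). These counts lay close to the background, and single introns changed by -0.106 to 0.075.

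Of 119 member introns tested, edgeR called 1 as spliced less (background 1.71%) and 0 as spliced more (background 0.0442%). At an unadjusted p under 0.05 there were 7 less and 2 more (background 8.11% and 1.61%), so the members' counts lay near the background. DESeq2 called 0 member introns in either direction (background 0.464%), with 7 at an unadjusted p under 0.05 (background 5.82%). Limma called 0 (background 0%, or 0 of 63309 introns), with 9 at an unadjusted p under 0.05 (background 9%). The one called was intron 2 of Ndufs8 (chromosome 19, 3961617 to 3961688, minus strand). Its splicing efficiency was 1.000 and 0.996 in the controls against 0.944 and 0.984 in the knockdown. The unsplit reads behind this were 0 and 1 in the controls against 15 and 1 in the knockdown, beside 304, 224, 252 and 62 split reads. The log2 odds ratio was 4.33 (SE 1.10) with an edgeR adjusted p of 0.0127. Pooled over libraries, the odds ratio was 26.8 with a 95% exact interval of 4.13 to 1130.3, which covers counting error only and is too narrow since a split read is counted at both junctions.

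Knockdown replicate 1 carried 15 of the 16 unsplit counts of the knockdown at this intron, 8 at its 5′ junction and 7 at its 3′ junction. A read that crosses both ends of the intron would enter both numbers. Without that library the edgeR adjusted p was 0.671, without control replicate 1 it was 0.490 and without control replicate 2 it was 0.0529. Over the 11 alternatives that gave a value it ran from 0.00473 to 0.671, and with the 3′ junction alone the intron was not tested. The other 4 Ndufs8 introns had overlapping groups. As a gene Ndufs8 had splicing efficiencies of 0.975 and 0.968 in the controls against 0.974 and 0.957 in the knockdown (edgeR adjusted p 0.937).

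Ndufs3, a core subunit of the arm that reaches into the matrix, had the largest fall in splicing efficiency of any member intron at its 133-nt intron 5 (chromosome 2, 90728848 to 90728980, minus strand). The values were 0.945 and 0.963 in the controls against 0.878 and 0.818 in the knockdown, with 20, 7, 35 and 27 unsplit reads. Groups were apart, but the log2 odds ratio of 1.79 (SE 0.55) had an edgeR adjusted p of 0.0644. With the 3′ junction alone the log2 odds ratio was 3.39 (edgeR adjusted p 0.0311), but with the 5′ junction alone it was 1.06 (edgeR adjusted p 0.738). The adjusted p was 0.315 with DESeq2, 0.379 with limma and 0.0319 in edgeR with a term for replicate number. Ndufs3 overlaps Kbtbd4 on the opposite strand, and whether reads were counted by strand is not given in the sources used here.

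In the opposite direction, intron 2 of Ndufb11, an accessory subunit of the membrane arm, was at 0.973 and 0.985 in the controls against 0.992 and 0.998 in the knockdown. It had 18 and 8 unsplit reads in controls and 5 and 1 after knockdown (log2 odds ratio -2.00, SE 0.70, edgeR adjusted p 0.148). Introns 5 and 6 of Ndufaf7 had groups that were apart and higher in the knockdown: intron 5 was at 0.839 and 0.876 against 0.939 and 0.928 (edgeR adjusted p 0.446), and intron 6 at 0.850 and 0.883 against 0.918 and 0.954 (0.545). None of these 3 passed the test.

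Where every library had at least 50 reads, the least completely spliced members were intron 1 of Ndufs1, intron 1 of Ndufv1 and intron 1 of Ndufs3, all core genes. For Ndufs1 the 739-nt intron was at 0.627 and 0.516 in the controls against 0.589 and 0.560 in the knockdown. Its 3′ junction had 0 and 2 split reads in the controls against 15 and 2 in the knockdown, where its 5′ junction had 165 and 93 against 131 and 96, so most of its split reads were counted at the 5′ end only. For Ndufv1 the 1122-nt intron was at 0.769 and 0.716 in the controls against 0.543 and 0.765 in the knockdown. For Ndufs3 the 95-nt intron was at 0.833 and 0.757 in the controls against 0.761 and 0.737 in the knockdown. All 3 had overlapping groups, and their edgeR adjusted p-values were 0.999, 0.860 and 0.934.

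**Figure D2:**
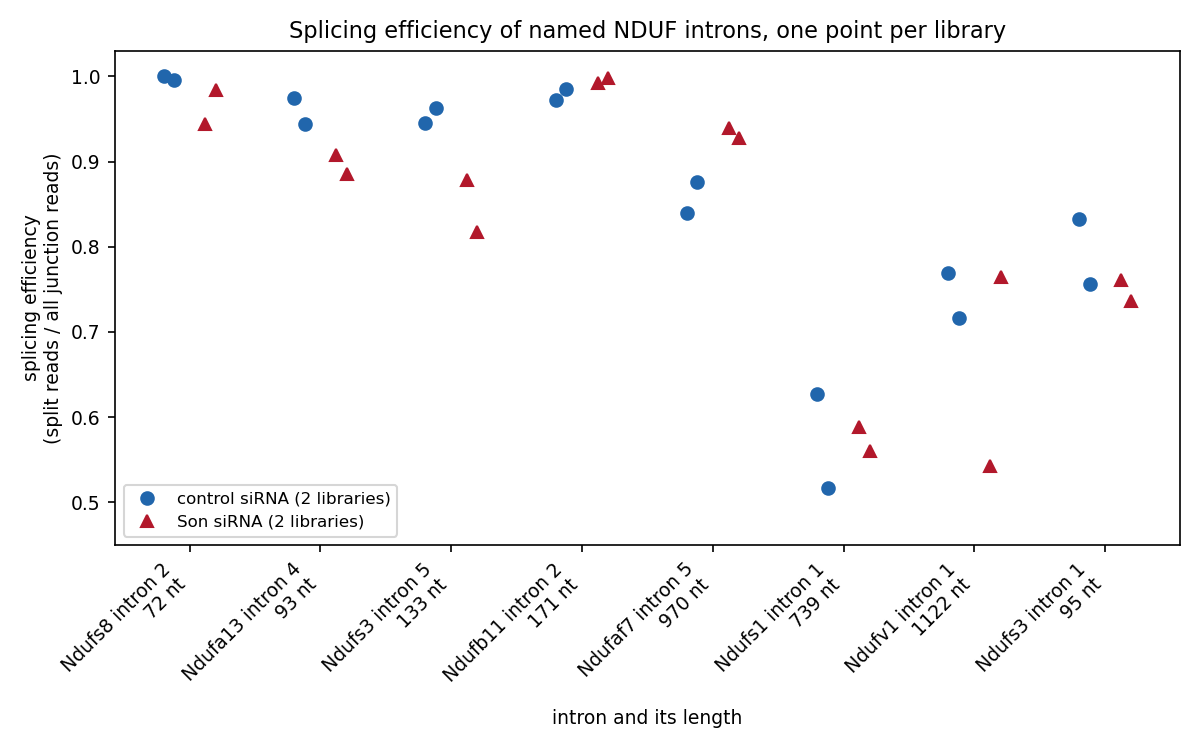
Splicing efficiency (split reads over all junction reads, vertical axis from 0.45) of 8 NDUF introns in each total RNA library, 2 control points and 2 knockdown triangles per intron. The first 3 introns were lower in both knockdown libraries, Ndufb11 intron 2 and Ndufaf7 intron 5 were higher, and the 3 least spliced introns on the right overlapped.

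Genes were also tested over the introns listed in all libraries under that gene alone. By edgeR 1 of 40 members was spliced less, Ndufa13, and 0 more (background 6.98% and 0.128%). At an unadjusted p under 0.05 there were 6 less and 1 more (background 12.7% and 1.13%). DESeq2 called 0 of 40 (background 5.4%), with 6 members at an unadjusted p under 0.05 (background 10.9%). These counts lay near the background too. Ndufs3 came next: as a gene it was at 0.894 and 0.862 in the controls against 0.798 and 0.778 in the knockdown. The log2 odds ratio was 0.97 (SE 0.36) with an edgeR adjusted p of 0.0861. This sum includes intron 2, whose 5′ junction had 0 and 0 split reads in the controls against 0 and 1 in the knockdown. Unsplit reads at that junction were 13 and 12 against 37 and 12. Its 3′ junction had 105 and 72 split reads against 119 and 43, so nearly all its split reads were counted at the 3′ end. The unsplit reads at its 5′ junction thus enter the gene's odds ratio with almost no split reads beside them. Ndufaf7, the one on the other side, was at 0.896 and 0.909 against 0.948 and 0.933 (edgeR adjusted p 0.211).

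Over all introns the loss of splicing was larger in short introns, and member introns were read in the same length classes. The 10 member introns of up to 100 nt had means of 0.935 and 0.927 in control libraries against 0.910 and 0.916 after knockdown, a change of -0.018, where the 4545 introns of this length changed by -0.046. The 11 member introns of over 100 and up to 300 nt had means of 0.960 and 0.957 in the controls against 0.933 and 0.916 in the knockdown, a change of -0.034, where all 9637 changed by -0.036. In both short classes the 2 knockdown libraries lay below the 2 controls. The 27 member introns of over 300 and up to 1000 nt changed by 0.0023 (all -0.013) and the 74 longer ones by -0.0078 (all -0.0047).

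Single introns in these classes gave the following counts. Groups were apart and lower in 3 of 10 introns of up to 100 nt (background 40.6%), 6 of 11 of up to 300 nt (background 38%), 3 of 27 of up to 1000 nt (background 23.6%) and 14 of 74 longer ones (background 17.8%). Called as spliced less by edgeR were 1 of 10 introns of up to 100 nt (background 8.28%) and 0 of 10 tested of up to 300 nt (background 5.51%). Called were also 0 of 26 of up to 1000 nt (background 1.01%) and 0 of 73 longer ones (background 0.221%). From the shortest to the longest class, members spliced less at an unadjusted p under 0.05 numbered 2 (background 25.8%), 3 (background 19.7%), 0 (background 7.21%) and 2 (background 3.27%). The difference between members and other introns of a class was not tested.

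**Figure D3:**
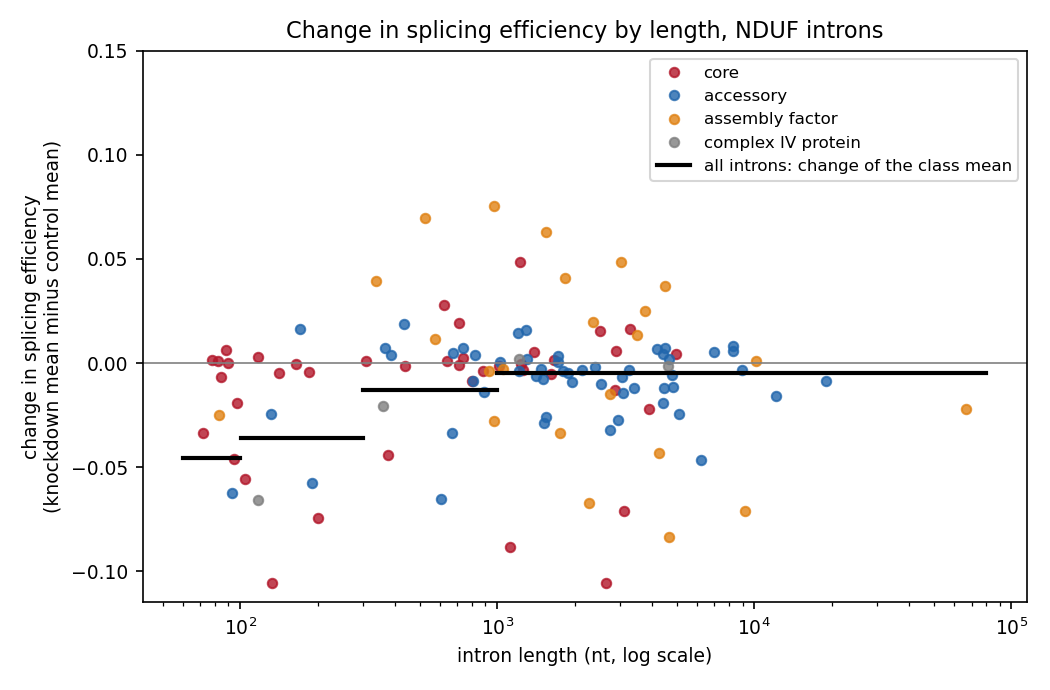
Change in splicing efficiency (mean of 2 knockdown minus mean of 2 control libraries) of each NDUF intron listed in all libraries against its length in nt on a log axis, coloured by role, with black lines for the change of the mean over all introns of a length class. The lines step from -0.046 for introns of up to 100 nt to -0.0047 for those over 1000 nt, and member introns lie on both sides of 0 in every class.

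In long reads, members took 30279 of 3080426 reads in the control (0.983%) and 18811 of 1874851 in the knockdown (1.00%). With 1 library a group these values have no replicate check, and intervals cover counting error only. All 46 genes had at least 20 reads in the pair of libraries together. None was 2-fold or more higher (background 2.2%) and 1 was 2-fold or more lower (background 4.16%), on the scale of log2 CPM with 0.5 reads added. The median ratio was 0.04. The one gene was Ndufaf6, with 41 reads in the control and 9 in the knockdown, or 13.3 CPM (95% Wilson interval 9.81 to 18.1) against 4.8 (2.53 to 9.12). In total RNA the same gene had 25.4 and 21 CPM of spliced reads in the controls against 28.0 and 25.9 in the knockdown, so the assays differed in direction for it.

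**Figure D4:**
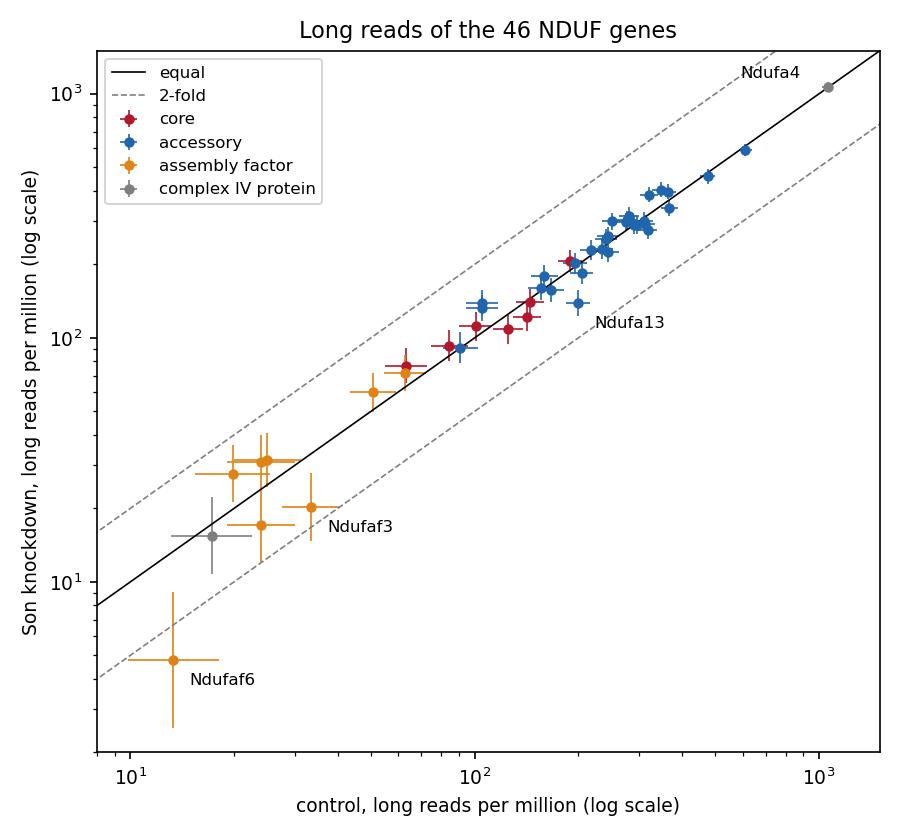
Long reads, in CPM, of the 46 NDUF genes in the control library against the knockdown library, both on log axes, coloured by role, with 95% Wilson intervals for counting error. Genes follow the line of equal levels from Ndufaf6 at 13.3 to Ndufa4 at 1058 CPM in the control, and only Ndufaf6 lies beyond the dashed 2-fold lines.

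Across the 39 genes measured in both assays, Spearman's rho between the log2 ratios was 0.43 and Pearson's r was 0.35 (0.39 and 0.26 without Ndufa13). This is a description across genes, which share the libraries and are not independent replicates. Ndufa13 and Ndufaf3 were low in both assays, at -0.52 and -0.71 in long reads. Ndufs8 was at -0.41 in total RNA and 0.15 in long reads.

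Read numbers of transcripts are given as counted, and ratios are scaled to the library totals, since the control library was the deeper one. Of 92 member transcripts with at least 20 reads, 2 were at least 2-fold higher (background 3.32%) and 3 at least 2-fold lower (background 5.8%). One of the higher was a retained-intron model of Ndufab1 (ENSMUST00000130857), from 5 to 18 reads. The lower were coding models of Ndufa11 (ENSMUST00000233233, 23 to 6 reads), Ndufaf6 (ENSMUST00000058183, 36 to 9) and Ndufb8 (ENSMUST00000171415, 21 to 5). These 4 transcripts each rested on fewer than 50 reads and were named after their values were seen. With at least 50 reads, the lowest ratios were those of coding models of Ndufs1 (ENSMUST00000168099, 46 to 16 reads, log2 ratio -0.78), Ndufaf3 (92 to 34, -0.71), Ndufa13 (-0.52) and Ndufaf5 (66 to 30, -0.41). The highest were coding models of Ndufa11 (73 to 82 reads, 0.88), Ndufa4 (28 to 30, 0.81) and Ndufaf1 (26 to 26, 0.72) and a retained-intron model of Ndufb4 (27 to 26, 0.66).

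Retained-intron models took 1.63% of the members' long reads in the control (95% Wilson interval 1.5 to 1.78) and 1.91% in the knockdown (1.73 to 2.12). Over all protein-coding genes the shares were 6.42% and 6.82%. Models of nonsense-mediated decay took 0.829% and 0.835% of members' reads. All models other than coding ones took 2.94% (2.76 to 3.14) and 3.31% (3.06 to 3.57), a difference of 0.364 points, beside 0.369 points over all protein-coding genes (10.4% and 10.8%). Of the retained-intron and decay models with at least 50 reads, those of Ndufa7 had 68 to 41 reads (retained intron, log2 ratio -0.01) and 70 to 47 (decay, 0.15). Ndufab1 had 87 to 59 (0.16), Ndufs7 45 to 37 (0.44), Ndufs1 36 to 27 (0.31), Ndufa3 39 to 25 (decay, 0.08) and Ndufs4 32 to 22 (decay, 0.19).

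These models do not describe the introns tested in total RNA. None of the 122 member introns overlapped an annotated exon of GENCODE M21 on the same strand, whereas 177 of 333 annotated member introns did, so introns that an exon of another model covers were not among the listed ones.

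The other genes of the respiratory chain were read from lists by complex. Of 9 further complex I assembly factors tested for spliced reads, such as Ecsit and Timmdc1, edgeR called 0 (background 6.76% fewer and 1.96% more). At an unadjusted p under 0.05, 1 of them had more reads (background 7.72%) and 0 had fewer (background 12%). Of 5 complex II genes edgeR called 0, with 0 at an unadjusted p under 0.05 (the same backgrounds). Complex III had 2 of 14 called fewer, complex IV 1 of 21 (Ndufa4 is in this list too) and complex V 1 of 17, and none was called more. Over these 3 complexes that was 4 of 52 genes, near the 6.76% of all genes called fewer. Their medians were 0.03 and 0.05 for the first pair of lists and -0.02, -0.10 and -0.07 for complexes III, IV and V. Of all genes in these lists, DESeq2 called Cyc1 and Atp5d, both fewer, and no other.

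The genes called were Cyc1 (cytochrome c1), Bcs1l (which inserts the Rieske protein into complex III), Cox7a2 (a complex IV subunit) and Atp5d (the delta subunit of ATP synthase), named after their values were seen. Atp5d had 47.7 and 48.1 CPM of spliced reads in the controls against 32.0 and 29.6 in the knockdown, a log2 fold change of -0.63 (SE 0.12, edgeR adjusted p 0.00141). Cyc1 had 314.4 and 300.8 against 256.4 and 237.8 (-0.32, SE 0.08, edgeR adjusted p 0.00971), and it was the one gene of these lists also called as spliced less (log2 odds ratio 0.98, edgeR adjusted p 0.00115). Bcs1l was at -0.55 (SE 0.16, edgeR adjusted p 0.0291) and Cox7a2 at -0.33 (SE 0.10, edgeR adjusted p 0.0392). In all 4 genes both knockdown libraries lay below both controls (background 24.6%). The genes were called in these same libraries, so this is no separate support.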

How the data were processed

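Members, gene lists and tests were chosen with earlier results of these data known. The total RNA tables, which the authors made with SPLICE-q per the labels, hold counts of junction reads, split or unsplit, for the 5′ and 3′ end of every intron. They also hold the authors' splicing efficiency, a fraction that equals split over all junction reads. The deposited long-read tables give read counts by transcript. The build GRCm39 and the tools SAMtools and minimap2 are named in the submitters' processing notes; versions, aligner settings, annotation and strand use are not given in the sources used here. Both long-read samples are labelled as coming from the same knockdown total RNA, the control too, so the assays were not paired.

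Introns were reduced to 1 entry per position, and no listed junction had under 10 reads. Names, transcript types and sequences came from GENCODE M21 by identifier; 84476 of 84627 introns had the same length there but 2070 the same position, so no position was taken from it. An intron carries the largest number among the transcripts that list it.

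Splicing was tested in edgeR 4.0.16 (R 4.3.3) with the quasi-likelihood test. The model had a term per library, one for unsplit reads, and the tested term for unsplit reads in the knockdown. Reads of the 5′ and 3′ junction were summed, so a read that reaches both was counted at each. Introns needed 10 split and 10 unsplit reads over the libraries. Gene tests summed a gene's introns listed in all libraries, without introns listed under more than 1 gene. Among members this left out 1 of the 2 introns of Ndufb9. A gene's spliced reads were its reads split at 5′ junctions, with TMM and edgeR's expression filter. P-values were adjusted by Benjamini-Hochberg over all features, with a threshold of 0.05; an exact permutation test of 2 against 2 cannot go below 0.333. Scripts were tested on simulated data. DESeq2 1.42.0, limma 3.58.1, single junctions, other scalings and filters and leaving out each library served as alternatives. Long-read ratios used a pseudocount of 0.5 reads and transcripts with at least 20 reads; shares have 95% Wilson intervals (scipy 1.17.1).

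Named by rule were introns and genes called, the 3 highest and 3 lowest fold changes of spliced reads, the 3 introns least spliced in controls with at least 50 reads in every library, and, among transcripts with at least 50 reads, the 4 highest and 4 lowest ratios and each retained-intron or decay model. Other genes and introns were named after their values were seen. A total of 18 members overlap a gene on the opposite strand and 6 one on the same strand in GENCODE M21. The values of 1 member gene enter the counts and medians but are not reported here on their own.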

Additional observations from a re-analysis of the deposited data

How the results depend on the processing

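The fall of spliced reads of Ndufa13 was called under all 10 alternatives. The count of members with changed spliced reads was 1 (background 8.72% in either direction). The members' median log2 fold change was -0.20 without knockdown replicate 1 and 0.01 without knockdown replicate 2. The count of member introns called was 1 (background 1.76% in either direction). It was 0 with DESeq2 (background 0.464%), 0 with limma (background 0%) and 0 with 5′ junctions only (background 0.464%). With no minimum of split and unsplit reads it was 2 (background 1.6%). With at least 50 reads in every library it was also 2 (background 2.08%), and in both settings Ndufa13 intron 4 was added. When a library was left out, the median log2 odds ratio of member introns ran from -0.03 to 0.36. The lowest was without knockdown replicate 2 (all introns -0.01) and the highest without knockdown replicate 1 (all introns 0.25). Members called as spliced less over the gene numbered 1 (background 6.98%) and 0 with DESeq2 (background 5.4% in either direction). When a library was left out, the median log2 odds ratio of member genes ran from -0.04 to 0.27. The lowest was without knockdown replicate 2 (all genes -0.02) and the highest without knockdown replicate 1 (all genes 0.21). The difference in mean splicing efficiency of member introns, -0.0088, ran from -0.017 to -0.00030 when a library was left out. Long-read transcripts past 2-fold numbered 5 (background 3.32% higher and 5.8% lower). They numbered 2 with a pseudocount of 5 reads and 0 with at least 50 reads, settings for which the share over all transcripts is not given here. The causes of these shifts were not tested. Scaling split and unsplit reads separately moved no count of member calls. It took the median log2 odds ratio of member introns from 0.18 to 0.03 (all introns 0.12 to -0.04) and turned that of member genes from 0.09 to -0.08 (all genes 0.09 to -0.08). Member introns below 0 went from 50 to 58, member genes below 0 from 14 to 21, and member introns at an unadjusted p under 0.05 from 9 to 13.

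Samples share replicate numbers. Across features, the deviations of same-numbered samples were nearly uncorrelated (0.0017 for spliced reads and 0.0085 for unsplit odds). This correlation cannot show a shift shared by a whole library. Replicate 1 had fewer unsplit reads per 1000 junction reads than replicate 2 in both groups. The values were 51.4 against 59.5 in the controls and 56.6 against 66.9 in the knockdown. Whether the numbers pair the samples was thus not settled, and the main tests did not use them as pairs. With the replicate block, calls were 4 introns (background 2.57%), among them Ndufa13 intron 4, Ndufs3 intron 5 and Ndufs8 intron 2. By splicing 3 genes were called (background 10.9%), Ndufa13 and Ndufs3 among them. By spliced reads 2 were called (background 10.6%), Ndufa13 and Ndufs8. Calls thus rose over all features too.

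Depth limits the splicing results: the called Ndufs8 intron rests on 17 unsplit reads in all, and 2 libraries a group give few degrees of freedom.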

Other observations

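The single listed intron of Ndufab1, the mitochondrial acyl carrier protein that is part of complex I, is 4496 nt long. Nearly all its split reads were counted at its 3′ junction. Its 5′ junction had 1 and 3 split reads in the controls against 5 and 3 in the knockdown, while its 3′ junction had 305 and 184 in the controls against 297 and 157 in the knockdown. Its spliced reads counted at 5′ junctions therefore understate the gene, which had 1119 and 745 long reads. Ndufb1-ps, a non-coding gene in GENCODE M21 that was left out of the members, had 2 introns listed in all 4 libraries.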
